A study of Mus musculus with 58 samples.

Results

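The FLRT, latrophilin and teneurin genes encode surface proteins of neurons that bind each other across contacts between cells. They were followed in RNA sequencing of the mouse prefrontal cortex. The set was 10 genes, matched by symbol in a table of 18088 genes: the FLRT genes Flrt1, Flrt2 and Flrt3, the latrophilin genes Adgrl1, Adgrl2 and Adgrl3, and the teneurin genes Tenm1, Tenm2, Tenm3 and Tenm4. All 10 passed the filter on low values, which kept genes with 10 or more normalized reads in 4 or more libraries and left 17925 in all. No member had fewer than 449 reads in any library. The set was chosen by what Flrt3 showed in these libraries, its higher values under fluoxetine than under vehicle. Member values in that comparison are therefore a description and carry no p-value.

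Latrophilins are adhesion G protein-coupled receptors that sit in neuronal membranes at synapses. FLRT proteins carry leucine-rich repeats outside the cell and bind latrophilins and the netrin receptors of the Unc5 family, and teneurins are large single-pass proteins that bind latrophilins through another part of the receptor. These contacts are known for guiding migrating cortical neurons and axons and for the choice of synaptic partners, and the proteins can form larger complexes in which a latrophilin holds both kinds of ligand.

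The study measured 58 mice of the strain C57BL/6J, each as a library of its own, labelled heterozygous (HT) or wild type (WT) for Tanc2, a gene for a synaptic scaffold protein. Lithium, fluoxetine or vehicle reached the pups in the milk of their mothers on postnatal days 3 to 24, and the cortex was collected at day 25. The HT arms held 9 lithium, 10 fluoxetine and 10 vehicle mice, and the WT arms 10 lithium, 10 fluoxetine and 9 vehicle mice. Each arm held 5 females and 5 males, except HT lithium and WT vehicle, each with 4 males. The labels name neither litters nor the part of Tanc2 that the HT allele lacks, and the p-values treat mice as independent.

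Libraries held 23271044 to 37801615 reads, with a median of 27912120. The sex of all 58 libraries matched the labels. Tanc2 was not lower in HT mice: it averaged 7953, 8061 and 8093 normalized reads in the HT lithium, fluoxetine and vehicle arms, against 7468, 7529 and 7541 in the same WT arms. Because the labels do not give the deleted part, this gene total checks nothing about the genotype, and HT and WT below mean the mice so labelled. Reads of Gm10221, a processed pseudogene, divided the libraries. The 31 libraries without them held every vehicle mouse and every fluoxetine male. The 27 with them were the 19 lithium mice and, of the fluoxetine females, 5 of 5 HT and 3 of 5 WT. In lithium minus vehicle the drug and these reads cannot be told apart. The same holds for lithium minus fluoxetine in males and for fluoxetine minus vehicle in HT females.

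Markers of excitatory neurons were the highest of the neuronal lists, with Slc17a7, the vesicular glutamate transporter gene, between 36296 and 56488 normalized reads. Summed markers of the olfactory bulb and migrating neuroblasts ran from 2386 to 27150 over the libraries, and Eomes of that list was listed at 0 in 1 library. The highest olfactory sum belonged to WT fluoxetine female 3, whose summed excitatory markers, 108109, were the lowest of all. This library was also the lowest of all 58 in 4 of the 10 members and the lowest of its arm in 7. In HT fluoxetine male 3 the olfactory sum was 17256, and it was the lowest of its arm in 7 members. Some Flrt3 and Flrt2 differences are given with and without these libraries. The arm means and differences of the other members include them. Markers that passed in fluoxetine minus vehicle were none in HT mice and Emcn, lower, in WT mice. In lithium minus vehicle the striatal markers Tac1 and Penk rose in both genotypes. Bcl11b rose and Tek and Rasgrf2 fell in HT mice, while Olig2 rose and Emcn and Rorb fell in WT mice. In lithium minus fluoxetine, beside the markers named further on, Bcl11b rose and the microglial Cx3cr1 fell in HT mice, and Tac1 and Ppp1r1b rose in WT mice. No marker of inhibitory neurons, astrocytes, oligodendrocytes or olfactory bulb passed in these 6 comparisons (limma). In HT mice all 8 olfactory markers were still lower in fluoxetine minus vehicle (median log2 difference -0.78). All 8 were higher there in lithium minus fluoxetine (1.12). In WT mice 7 and 5 of the 8 were higher in these comparisons (0.13 and 0.08). In lithium minus vehicle 7 were higher in each genotype (0.29 in HT and 0.25 in WT mice). What part any of these markers had in the members' values was not tested.

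Per kilobase of exon, Adgrl1 was by far the most abundant member, while several of the genes below it lay close together. Adgrl1 averaged 2577 ± 207 normalized reads per kb (SD, n = 58) and was above the next gene, Flrt2 at 349 ± 54, in 58 of 58 libraries. Tenm3 at 290 ± 55, Adgrl2 at 251 ± 29 and Tenm4 at 207 ± 14 followed. Below them came Adgrl3 at 174 ± 13, Tenm2 at 157 ± 17, Flrt3 at 145 ± 23, Flrt1 at 143 ± 20 and Tenm1 at 125 ± 13, all per kb.

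Neighbours in this order were not always separate. Flrt3 was above Flrt1 in 28 of 58 libraries and Tenm2 above Flrt3 in 36, so these 3 levels did not differ beyond their spread. Flrt2 was above Tenm3 in 42 libraries and Tenm3 above Adgrl2 in 44. Adgrl2 was above Tenm4, Adgrl3 above Tenm2 and Flrt1 above Tenm1 in 52 libraries each, and Tenm4 was above Adgrl3 in all 58. These levels divide by the summed exon length of the annotation, so a gene whose neurons use a short isoform is understated.

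**Figure D1:**
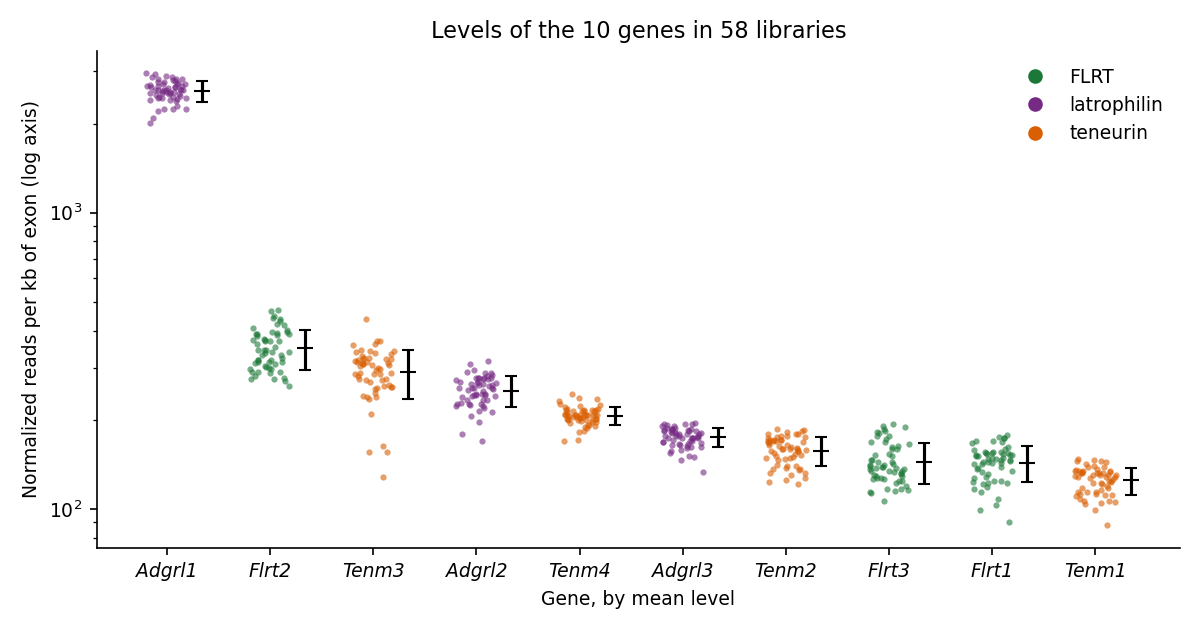
Level of each gene in normalized reads per kb of exon (log axis) in the 58 libraries, with a point for each library and the mean and SD beside them. Adgrl1 lies above all other members in every library, while Flrt3, Flrt1 and Tenm2 overlap between 143 and 157 on average.

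Within the families the shares were uneven. Adgrl1 made up 85.8% ± 0.69 of latrophilin reads per kb (SD, n = 58), with 8.35% from Adgrl2 and 5.82% from Adgrl3. Flrt2 made up 54.6% ± 2.6 of the FLRT genes, with 22.6% from Flrt1 and 22.7% from Flrt3. Among the teneurins Tenm3 led with 36.9% ± 4.6, followed by Tenm4 with 26.7%, Tenm2 with 20.3% and Tenm1 with 16.1%. The share of Tenm3 ran from 21.7% to 46.8% and that of Flrt1 from 15.9% to 29.0%.

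Flrt3, a FLRT gene whose product binds Adgrl3 and Unc5 receptors, was higher in fluoxetine mice than in vehicle mice of both genotypes. In HT mice Flrt3 ran from 741 to 923 normalized reads with a median of 812 under fluoxetine, against 517 to 674 with a median of 638 under vehicle. The HT groups did not overlap, and all 10 fluoxetine values lay above all 10 vehicle values. In WT mice it ran from 604 to 944 with a median of 850 under fluoxetine, against 555 to 685 with a median of 632 under vehicle. Here 9 of 10 fluoxetine values lay above every vehicle value, and the exception was WT fluoxetine female 3 at 604.

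Expressed as arm means, Flrt3 was at 828 ± 66 in HT fluoxetine (SD, n = 10) against 622 ± 54 in HT vehicle (n = 10), and at 821 ± 101 in WT fluoxetine (n = 10) against 631 ± 34 in WT vehicle (n = 9). The log2 difference was 0.41 ± 0.06 (SE) in HT mice, 1.33 times the vehicle level, and 0.37 ± 0.06 in WT mice, 1.29 times. Without WT fluoxetine female 3 the WT difference was 0.42 and the arm mean 845 ± 70 (n = 9). Flrt3 was the only member past the limma threshold, a Benjamini-Hochberg adjusted p under 0.05 over all genes tested. Of all genes 3.54% passed in HT and 1.38% in WT mice, and 1.46% and 0.469% passed as higher under fluoxetine. Since the set was found through this comparison, nothing is read from its count of 1.

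**Figure D2:**
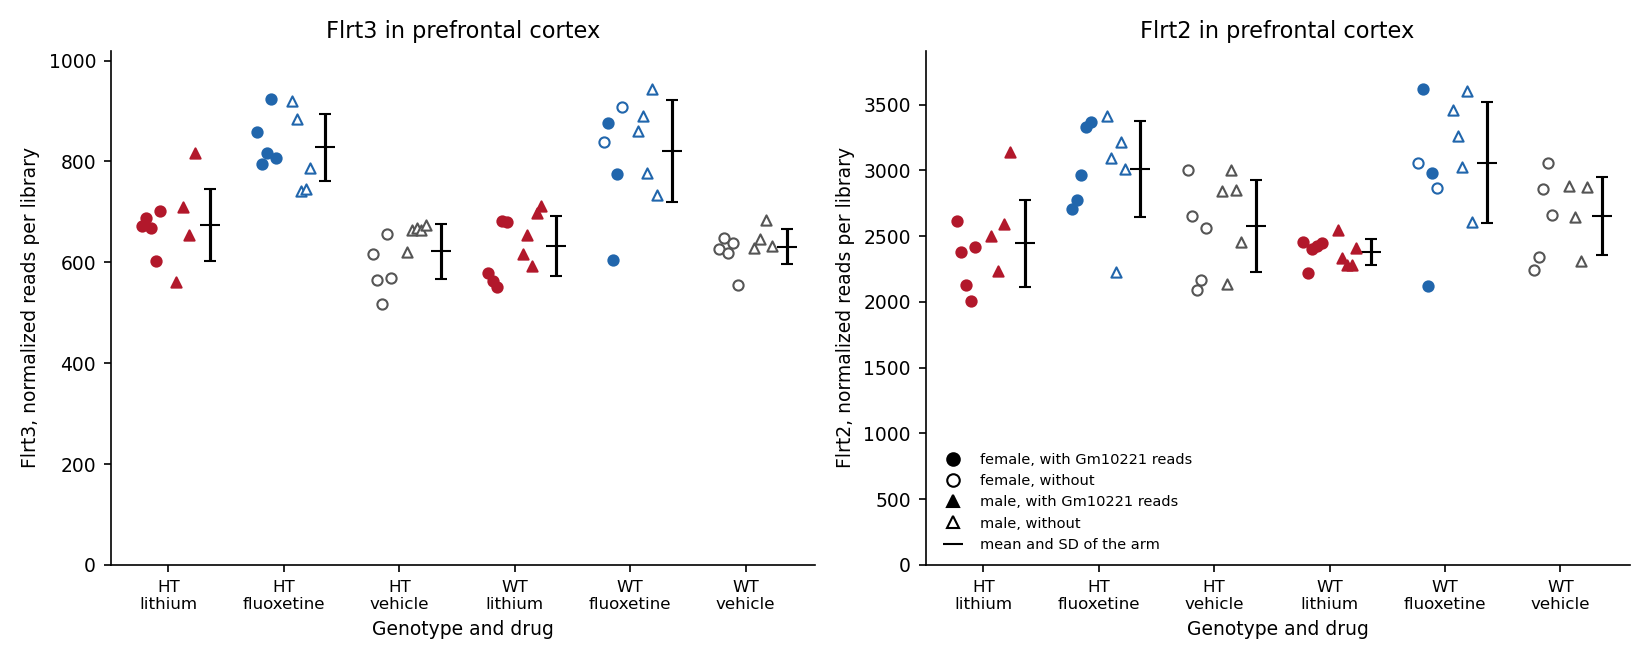
Normalized reads of Flrt3 (left) and Flrt2 (right) in each library by genotype and drug, with the mean and SD of each arm; filled symbols mark libraries with Gm10221 reads. Flrt3 lies between 741 and 923 in HT fluoxetine mice, above all HT vehicle mice, and Flrt2 in WT lithium mice lies in a narrow band between 2218 and 2551.

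The Flrt3 difference had the same direction in each sex and in libraries without Gm10221 reads. These are parts of the same mice that led to the set, so their likeness is a description and no test on fresh data. Fitted alone, HT females differed by 0.53 and HT males by 0.30, and WT females by 0.36 and WT males by 0.37, all fluoxetine minus vehicle on the log2 scale. In these fits by sex Flrt3 was past the limma threshold in HT females only. In the 31 libraries without Gm10221 reads the difference was 0.35 in HT and 0.41 in WT mice, where all HT fluoxetine mice left were males. With those reads as a term in the fit it was 0.42 in HT and 0.37 in WT mice. WT fluoxetine females held both kinds of library, with Flrt3 at 604, 775 and 875 in the 3 with reads and at 839 and 909 in the 2 without.

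Lithium minus vehicle passed in neither genotype for Flrt3. It ran from 561 to 817 with a median of 671 in HT lithium mice, against 517 to 674 with a median of 638 in HT vehicle mice. In WT mice it ran from 551 to 713 with a median of 635 under lithium, against 555 to 685 with a median of 632 under vehicle. The groups overlapped in both genotypes. The log2 difference was 0.12 ± 0.06 in HT mice (limma, Benjamini-Hochberg adjusted p = 0.197; 95% interval -0.01 to 0.24) and 0.00 ± 0.06 in WT mice (adjusted p = 0.989; interval -0.13 to 0.12).

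The sequences just before the start of Flrt3 and Flrt2 are shown because these are the members that separated the drugs. Each window is the 250 bases before the RefSeq start (GRCm38.p6), on the gene's own strand: chr2:140671477-140671726 on the minus strand for Flrt3 and chr12:95691976-95692225 on the plus strand for Flrt2. Of the 10 members 9 were found in that promoter table, and Flrt1 is named only. Capitals mark the 1 match found.
Flrt3: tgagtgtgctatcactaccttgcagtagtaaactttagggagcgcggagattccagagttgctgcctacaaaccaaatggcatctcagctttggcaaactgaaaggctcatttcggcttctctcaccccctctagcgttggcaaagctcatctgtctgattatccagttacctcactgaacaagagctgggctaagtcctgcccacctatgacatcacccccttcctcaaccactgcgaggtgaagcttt
Flrt2: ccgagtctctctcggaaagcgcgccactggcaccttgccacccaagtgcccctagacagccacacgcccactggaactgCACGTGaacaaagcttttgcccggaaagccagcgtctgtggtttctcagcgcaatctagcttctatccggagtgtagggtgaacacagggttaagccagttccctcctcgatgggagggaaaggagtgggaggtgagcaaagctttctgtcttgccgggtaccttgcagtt
Both strands were searched for 6 motifs. The cAMP response element TGACGTCA occurred in 1.55% of 32851 promoters of this length, its shorter form TGACG in 17.8%, the AP-1 site TGANTCA in 6.75%, the EGR site GCGNGGGCG in 4.7%, the E-box CACGTG in 6.02% and the serum response element (CArG box) in 1.47%. TGACG lies within TGACGTCA, so those 2 searches overlap. Flrt3 held no match in this window, which says only that these letters are not in it, and Flrt2 held 1 E-box that begins at position -171 from the start. G and C made up 57.2% of the Flrt2 window, above the median of 52.4% over all promoters, and a smaller share than that median in Flrt3.

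Flrt2, the most abundant FLRT gene and a ligand of Unc5 receptors as well as latrophilins, fell under lithium relative to fluoxetine in both genotypes. In HT mice Flrt2 ran from 2009 to 3140 normalized reads with a median of 2419 under lithium, against 2230 to 3412 with a median of 3055 under fluoxetine. In WT mice it ran from 2218 to 2551 with a median of 2405 under lithium, against 2124 to 3621 with a median of 3041 under fluoxetine. All 10 WT lithium values lay below the mean of WT fluoxetine mice of their sex, and 8 of 9 HT lithium values did so in HT mice, but the ranges overlapped. Lithium WT mice were also the most uniform arm, at 2381 ± 100 (SD, n = 10) against 3060 ± 463 in WT fluoxetine mice (n = 10).

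The fitted difference of Flrt2, lithium minus fluoxetine, was -0.29 ± 0.08 in HT mice (limma, Benjamini-Hochberg adjusted p = 0.0231) and -0.35 ± 0.08 in WT mice (adjusted p = 0.00258). In this comparison 2 of the 10 members, Flrt2 and Flrt3, were past the threshold and lower under lithium in each genotype. Of all genes 6.25% passed in HT and 9.55% in WT mice, 3.06% and 4.26% as lower under lithium. The Flrt3 difference, which takes in the fluoxetine mice used to find the set, was -0.30 in HT and -0.37 in WT mice. The Flrt2 difference takes in the same mice, so its p-values and the count of 2 are no test on fresh data.

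The HT call of Flrt2 rested on few libraries. It was lost without HT lithium female 4 (adjusted p = 0.0576), without HT lithium male 2 (0.0747) or without HT fluoxetine male 1 (0.0544), with differences between -0.27 and -0.25. It was also lost when only the groups compared were fitted (0.0574) and with Gm10221 reads as a term (0.0804). In the females that had Gm10221 reads in both drug groups the difference was -0.39 in HT mice (adjusted p = 0.18) and -0.25 in WT mice (0.228), in the same direction and past no threshold. Without HT fluoxetine male 3 the HT difference was -0.34 (limma adjusted p = 0.00432). The WT difference was -0.40 without WT fluoxetine female 3.

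Against vehicle neither drug moved Flrt2 past the threshold. It averaged 2447 ± 331 in HT lithium, 3011 ± 365 in HT fluoxetine and 2577 ± 353 in HT vehicle mice, and 2381 ± 100, 3060 ± 463 and 2653 ± 295 in the WT lithium, fluoxetine and vehicle arms (SD). Lithium minus vehicle was -0.06 ± 0.08 in HT and -0.15 ± 0.08 in WT mice (limma adjusted p = 0.658 and 0.291). Fluoxetine minus vehicle was 0.23 in HT and 0.20 in WT mice. Without HT fluoxetine male 3, whose Flrt2 value of 2230 was the lowest of its arm, the HT difference was 0.28 and past the threshold.

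Flrt2 followed the markers of excitatory neurons. Across the 58 libraries, with the mean of each group of genotype, drug and sex removed, its Pearson r with the mean of 6 excitatory markers was 0.84 (0.78 without the 2 libraries farthest from the median), and -0.68 with olfactory bulb markers. The summed excitatory markers ran from 132588 to 164054 in HT lithium, from 116897 to 178528 in HT fluoxetine and from 128305 to 173248 in HT vehicle mice. In the WT arms they ran from 133184 to 171841 under lithium, from 108109 to 174378 under fluoxetine and from 139510 to 168429 under vehicle. None of the 6 passed in either fluoxetine comparison with vehicle. In lithium minus fluoxetine 0 of 6 passed in HT mice, and in WT mice only Neurod2 did, higher under lithium. Of the 8 olfactory markers 0 passed in lithium minus fluoxetine, but 8 were higher in HT mice (median log2 difference 1.12). In WT mice 5 of the 8 were higher (0.08). The part of excitatory or olfactory markers in the Flrt2 difference was not tested. In whole tissue, fewer cells of a type and less RNA per cell cannot be told apart.

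Some markers of upper cortical layers fell in the same comparison. Of 5 markers, Rasgrf2 (-0.20 ± 0.06, limma adjusted p = 0.0288) and Lamp5 (-0.33 ± 0.10, 0.0303) fell in HT lithium relative to HT fluoxetine mice, and Rasgrf2 fell in WT mice (-0.23 ± 0.06, 0.00544). Among all genes 3.06% in HT and 4.26% in WT mice passed there as lower. The mean of the 5 markers had an r of 0.61 with Flrt2 and 0.49 with Flrt3 (0.53 for each without the 2 farthest libraries). In fluoxetine minus vehicle 4 of the 5 were higher in HT and 5 in WT mice, and 0 passed. The summed level of the 5 markers had a median of 18551 in HT lithium against 20560 in HT fluoxetine mice, and of 18692 in WT lithium against 20949 in WT fluoxetine mice. What part the upper layer markers had in the Flrt2 and Flrt3 differences was not tested.

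**Figure D3:**
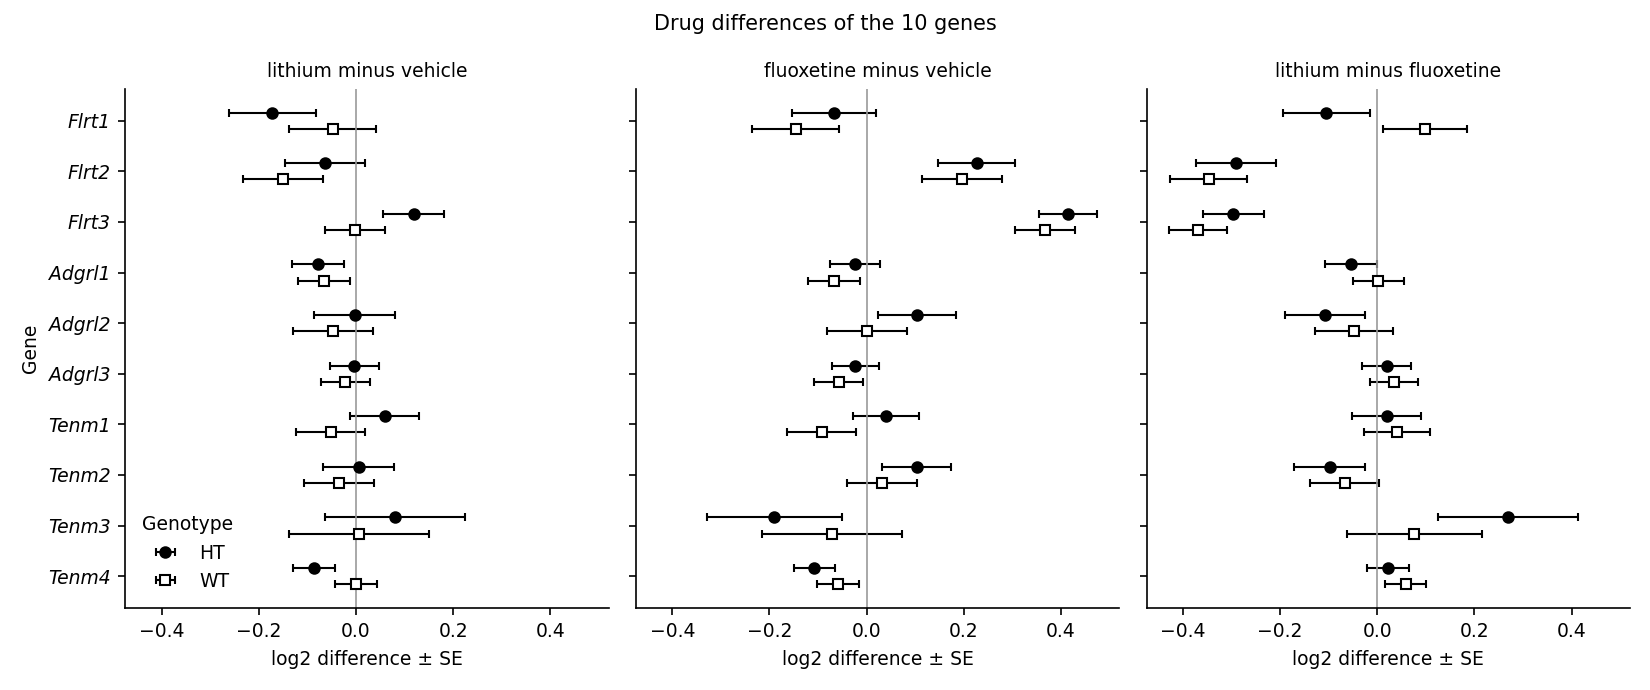
Log2 differences with their SE for the 10 genes in 3 drug comparisons, with HT mice as filled circles and WT mice as open squares. Flrt3 stands at 0.41 and 0.37 in fluoxetine minus vehicle, and Flrt2 and Flrt3 lie between -0.37 and -0.29 in lithium minus fluoxetine; the other members lie nearer to 0 apart from Tenm3 in HT mice at 0.27.

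Flrt1, the remaining FLRT gene and also a latrophilin ligand, passed in no comparison. It averaged 755 ± 125 normalized reads in HT lithium, 809 ± 106 in HT fluoxetine and 845 ± 90.5 in HT vehicle mice. In WT mice it averaged 885 ± 95 under lithium, 832 ± 134 under fluoxetine and 909 ± 98 under vehicle. The log2 difference between HT and WT mice under lithium was -0.24 ± 0.09, the member difference with the smallest unadjusted p among the comparisons of genotype, at 0.0105 (limma, adjusted p = 0.287). HT lithium female 4 held the lowest Flrt1 value of all 58 libraries, 530.

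The latrophilins passed in no drug comparison. Adgrl1, a receptor for both FLRTs and teneurins, averaged 21123 ± 1372 normalized reads in HT lithium, 21942 ± 1828 in HT fluoxetine and 22314 ± 1916 in HT vehicle mice, and 22111 ± 1167, 22186 ± 2533 and 23110 ± 1280 in the WT lithium, fluoxetine and vehicle arms. Adgrl2 lay between 3450 and 3737 in the 6 arm means and Adgrl3, the latrophilin known to pair with Flrt3 at cortical synapses, between 3015 and 3207. Over the 6 drug comparisons their log2 differences ran from -0.11 to 0.10. Under lithium against vehicle 0 of the 10 members passed in either genotype by limma, edgeR or DESeq2, and 0 had an unadjusted limma p under 0.05, where 16.3% of all genes passed in HT and 7.47% in WT mice.

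The teneurins showed the widest and the narrowest spread of the set. Tenm3, a teneurin used in wiring of visual and limbic circuits, had a within-group SD of 0.33 on the log2 scale, larger than that of 97.0% of the 12450 genes with a mean of at least 100, whose median SD was 0.12. Tenm4 had an SD of 0.09, the smallest among the members. Tenm3 averaged 3102 ± 716 in HT lithium, 2648.7 ± 828.6 in HT fluoxetine and 2920 ± 538 in HT vehicle mice, and 3103 ± 338, 2951 ± 412 and 3106 ± 409 in the WT lithium, fluoxetine and vehicle arms. Its log2 difference in HT mice was 0.27 ± 0.14 for lithium minus fluoxetine (limma adjusted p = 0.273). Tenm4 averaged between 4153 and 4469 in the 6 arms.

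In Tenm3, 4 libraries lay below all others. They were HT fluoxetine female 4 at 1316, HT vehicle female 1 at 1596, HT fluoxetine male 1 at 1599 and HT fluoxetine male 2 at 1667 normalized reads, and the next, HT lithium male 4, was at 2145. The same 4 libraries held summed oligodendrocyte markers of 60130 to 77401, all among the 6 lowest of 58. Their upper layer markers were among the 8 highest and their deep layer markers among the 7 lowest. Flrt2 and Flrt3 were not low in the fluoxetine libraries among these, with Flrt2 at 3098 to 3412 and Flrt3 at 883 to 923.

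Across all 58 libraries, with group means removed, the r of Tenm3 was -0.68 with upper layer markers, 0.59 with oligodendrocyte markers and 0.51 with deep layer markers. Without the 2 farthest libraries these were -0.66, 0.47 and 0.37. The part of tissue composition in the Tenm3 values was not tested. Tenm1 and Tenm2, the other teneurins, averaged between 2156 and 2305 and between 1724 and 1888 in the 6 arms, with no call in any comparison.

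Among mice of a group, 7 of the genes varied together. Between Flrt1, Flrt2, the latrophilins, Tenm1 and Tenm2, a grouping made after their values were seen, r ran from 0.51 for Flrt1 with Flrt2 to 0.85 for Flrt2 with Adgrl2 (n = 58). Each of the 7 also followed the excitatory markers, with r from 0.63 for Adgrl3 to 0.94 for Adgrl2. Tenm3 and Tenm4 varied with each other (0.47), and Tenm3 ran against Adgrl2, Flrt3 and Flrt2 (-0.37, -0.36 and -0.36). Flrt3 had its highest r at 0.48 for Adgrl2 and 0.46 for Flrt2, and Tenm4 at 0.47 for Adgrl3. All points share the library's depth scaling and tissue make-up.

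**Figure D4:**
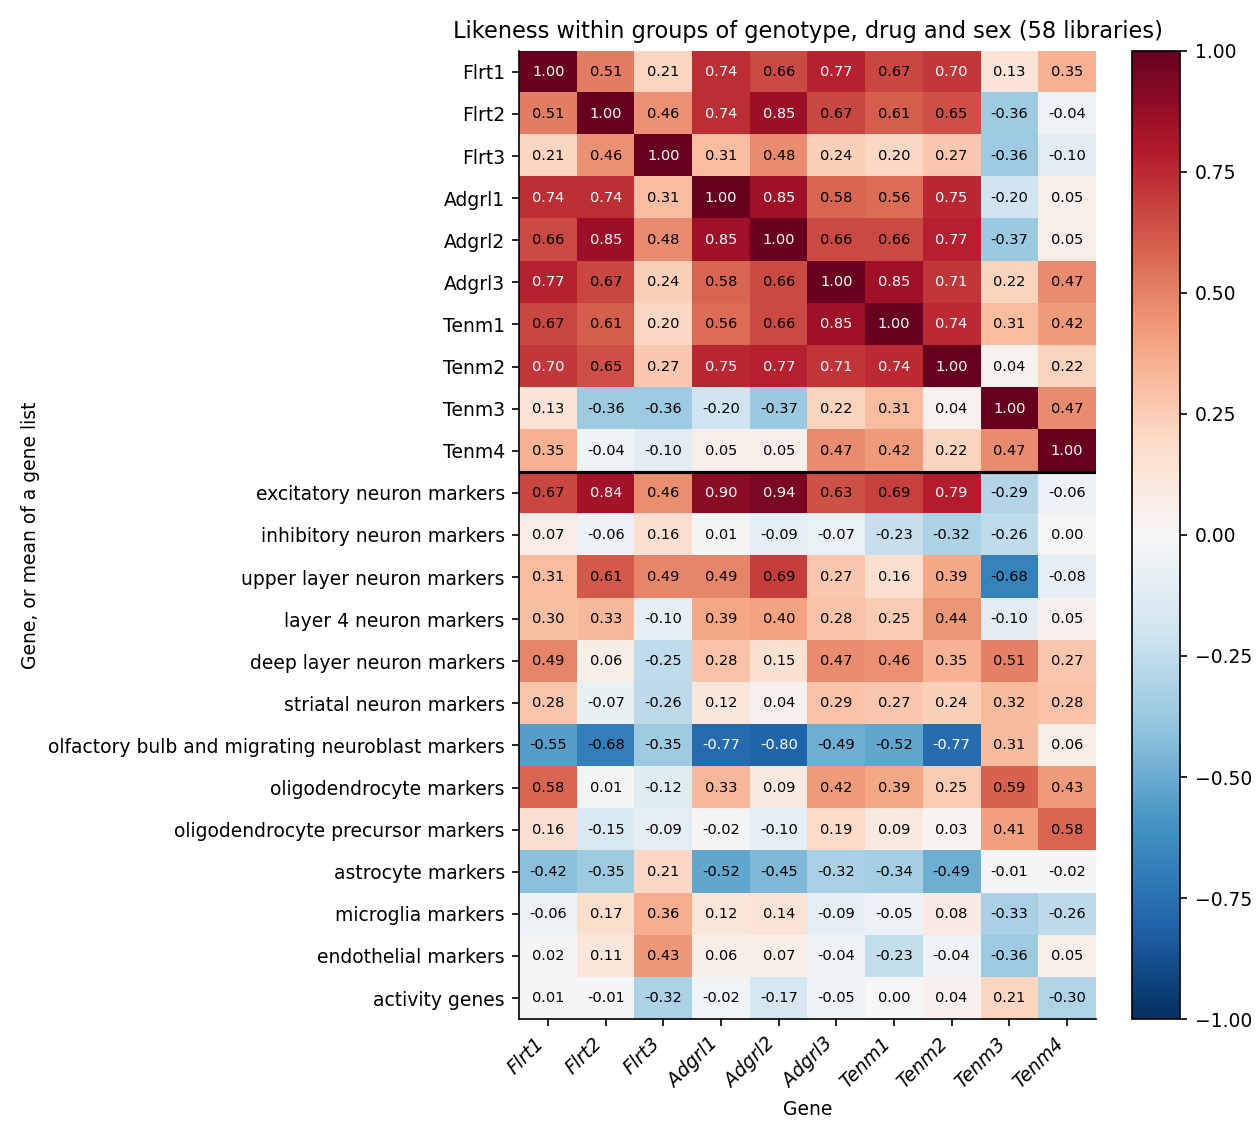
Pearson's r over 58 libraries after removal of the means of the 12 groups of genotype, drug and sex, among the 10 genes (above the line) and between each gene and the mean of marker and activity lists (below it). A block of high values joins Flrt1, Flrt2, the latrophilins, Tenm1 and Tenm2 with excitatory markers, and Tenm3 stands apart at -0.68 with upper layer markers.

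The named genes most like each member, of 11755 protein-coding genes with a mean of at least 100, are given with their r over the same 58 libraries. Adgrl2 was most like Kcnq5 (r = 0.95), a potassium channel gene, and Adgrl1 most like Klc2 (0.95). Flrt2 was most like Kcnv1, Fbxw7 and Cnksr2, each at 0.89, and Tenm3 most like Ndst4 (0.91), a heparan sulfate enzyme gene. Flrt1 was nearest to Mrtfb (0.87), Adgrl3 to Myt1l (0.92), Tenm1 to Kif1b (0.88), Tenm2 to Chd5 (0.89) and Tenm4 to Igf2r (0.78). Flrt3 had the weakest nearest neighbour of the 10: Pam at 0.72, a peptide-amidating enzyme gene, with Tmem215 at 0.71 and Smad3 at 0.70. At its other end stood Sik1 (-0.70), Brd2 (-0.69) and Dusp5 (-0.69).

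Genes induced by neuronal activity were lower under fluoxetine, where Flrt3 was higher. Of 12 such genes, 9 fell in HT fluoxetine relative to HT vehicle mice and 7 in WT mice, with median log2 differences of -0.81 and -0.66, against medians of 0.00 over all genes. The log2 difference of Arc, whose product acts in dendrites to remodel synapses, was -1.70 ± 0.24 in HT and -1.40 ± 0.25 in WT mice (limma adjusted p = 4.56e-06 and 0.000432). That of the nuclear receptor gene Nr4a1 was -0.95 ± 0.13 and -0.64 ± 0.13 (adjusted p = 2.04e-06 and 0.00377). Under lithium relative to fluoxetine, 5 rose in HT and 11 in WT mice, with medians of 0.52 and 0.89. Lithium against vehicle gave 2 lower in HT mice, Nr4a1 and Arc, and 1 higher in WT mice, Egr4. These lithium counts were near the shares of all genes that passed, 16.3% in HT and 7.47% in WT mice. By sign alone, 11 of the 12 were lower in HT mice (median log2 difference -0.25) and 11 higher in WT mice (0.18). The shares of all genes were 3.54% in HT and 1.38% in WT mice for fluoxetine minus vehicle. For lithium minus fluoxetine they were 6.25% and 9.55%. This list was chosen with earlier results of these data known, so its counts and p-values are no test on fresh data.

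Within groups Flrt3 tended to be low where these genes were high. Over 58 libraries the r of Flrt3 with the mean of the 12 genes was -0.32 (Spearman -0.33; -0.20 without the 2 farthest libraries). It was -0.63 in 19 lithium libraries, 0.06 in 20 fluoxetine libraries and -0.69 in 19 vehicle libraries. Without the 2 farthest libraries these were -0.39, 0.20 and -0.54. Whether the drugs differ in this relation was not tested, and the part of activity genes in the Flrt3 difference was not tested.

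**Figure D5:**
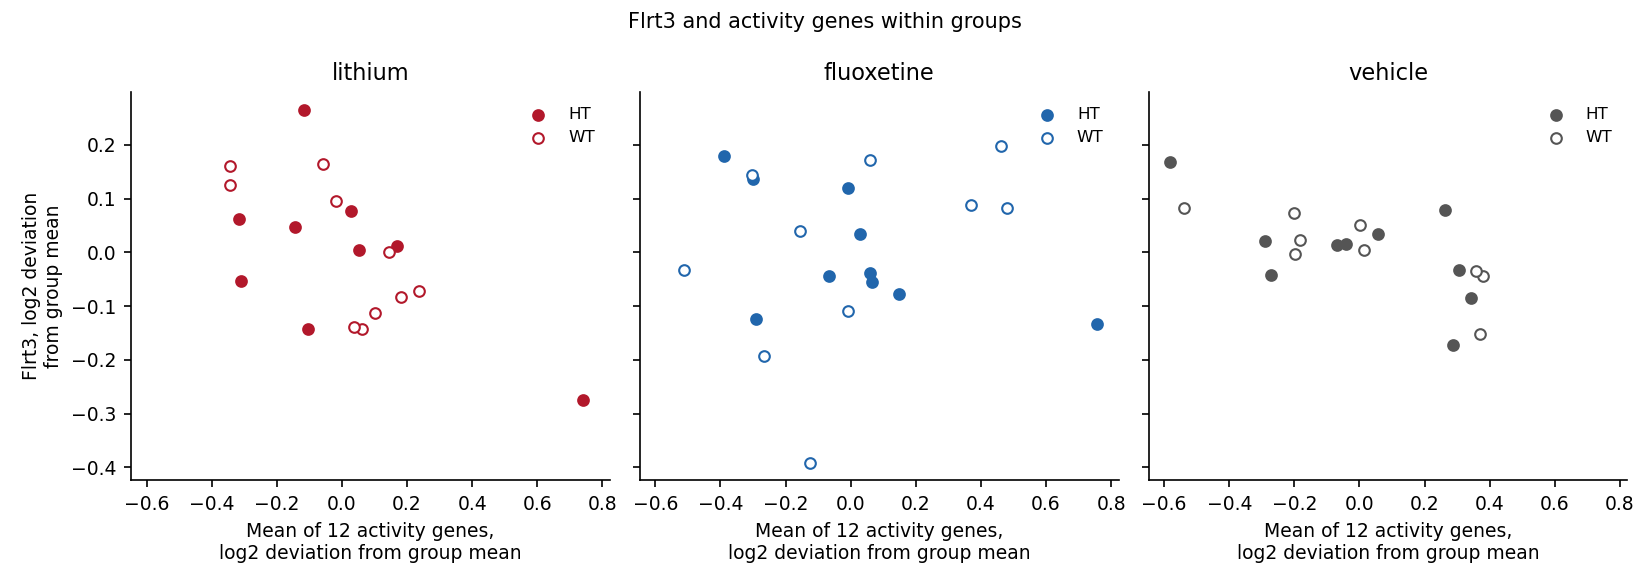
Deviation of Flrt3 from its group mean (y axis, log2) against that of the mean of 12 activity genes (x axis, log2) in lithium, fluoxetine and vehicle libraries, with HT mice filled and WT mice open. The points slope down under lithium (r = -0.63) and vehicle (r = -0.69) and show no slope under fluoxetine (r = 0.06).

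No member passed between the genotypes. Under lithium, fluoxetine and vehicle 0 of the 10 members passed between HT and WT mice by limma, and likewise by edgeR and DESeq2. Among all genes limma called 0.0% in each arm, with 2006, 1114 and 814 genes at an unadjusted p under 0.05, and edgeR called 0 in each arm and DESeq2 14, 2 and 3. Under vehicle 9 of 10 members were lower in HT mice, by at most 0.11, and the median difference was -0.07 against 0.00 over all genes. At an unadjusted p under 0.05 there was 1 member, Flrt1 under lithium, and none in the other arms.

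The difference of a drug effect between genotypes passed for 0 of 10 members with both drugs by limma, edgeR and DESeq2, and for 0.0% of all genes by limma; no member had an unadjusted p under 0.05. Over all genes 1196 for lithium and 1128 for fluoxetine had one, edgeR called 0 for both, and DESeq2 called 4 and 2. For Flrt3 the lithium difference between HT and WT mice was 0.12 ± 0.09 and the fluoxetine difference 0.05 ± 0.09. Females and males differed in 0 members, where 0.301% of all genes passed, with Flrt3 at -0.07 ± 0.04 (limma adjusted p = 0.522), female minus male. The drug effects differed between the sexes in 0 members for lithium (0.0% of all genes, 454 at an unadjusted p under 0.05, edgeR 0 and DESeq2 3) and 0 for fluoxetine (0.0335%, with 4 genes by edgeR and 7 by DESeq2). None of these sex comparisons had a member with an unadjusted p under 0.05.

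Genes listed as partners of the set passed in small numbers, read beside the shares of all genes. Of 23 partner genes, which include the Unc5 and Robo receptors, neurexins, Shank scaffolds and G protein subunits, 2 fell in HT lithium relative to HT vehicle mice: Gna13 (-0.23 ± 0.04, limma adjusted p = 4.99e-05), a G protein subunit that latrophilins can couple to, and Shank1 (-0.37 ± 0.10, 0.00757), a scaffold of excitatory synapses. In WT mice 1 rose, Nrxn2, a presynaptic neurexin (0.18 ± 0.04, 0.00273). Under fluoxetine against vehicle 1 rose in HT mice, Adgrl4 (0.29 ± 0.08, 0.0431), an adhesion receptor of blood vessels, and 0 in WT mice (limma, with 0 lower). Adgrl4 shares the latrophilin gene name, and no binding of it to the set is known from these sources. Of all genes 16.3% in HT and 7.47% in WT mice passed for lithium and 3.54% in HT and 1.38% in WT mice for fluoxetine, so the 1 of 23 in HT fluoxetine mice was near the general share. Partner medians lay between 0.00 and 0.03 in these 4 comparisons. Under lithium relative to fluoxetine Adgrl4, Gna13 and Fgfr3 fell in HT mice and Nrxn2 rose in WT mice. There 6.25% of all genes passed in HT and 9.55% in WT mice.

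Adgrl4 and endothelial markers fell together in HT mice under lithium relative to fluoxetine. Of 5 endothelial markers, Cldn5 (-0.31 ± 0.07), Flt1 (-0.37 ± 0.09) and Pecam1 (-0.28 ± 0.08) fell in HT lithium relative to HT fluoxetine mice, and the summed level ran from 2860 to 4040 under lithium against 3386 to 5457 under fluoxetine. Flrt3 had an r of 0.43 with these markers, beside 0.49 with upper layer and 0.46 with excitatory markers. The order depended on the measure. Spearman values were 0.45, 0.43 and 0.30, and r without the 2 farthest libraries was 0.38, 0.53 and 0.30. In fluoxetine minus vehicle 0 of the 5 passed in HT mice, with 3 higher and 2 lower, and 1 in WT mice, Emcn, which was lower. In lithium minus fluoxetine 0 of the 5 passed in WT mice. Of all genes 3.06% in HT and 4.26% in WT mice passed there as lower. The part of these markers in the Adgrl4 and Flrt3 values was not tested.

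Other synaptic adhesion genes with leucine-rich repeats, 23 in the list, held genes that passed in both directions. In fluoxetine relative to vehicle HT mice Lrfn2, a postsynaptic organizer of the SALM family, rose (0.41 ± 0.09, limma adjusted p = 0.00568) and Elfn2 fell (-0.16 ± 0.04, 0.0215), and in WT mice 0 passed. Under lithium relative to vehicle, 2 rose and 3 fell in HT mice, and 3 rose and 1 fell in WT mice, where 16.3% of all genes passed in HT and 7.47% in WT mice. Lrrc4b, a netrin-G ligand, was higher in both (0.16 ± 0.04 and 0.21 ± 0.04), and Slitrk3, an organizer of inhibitory synapses, lower in both (-0.13 ± 0.04 and -0.16 ± 0.04). The medians of the list lay between -0.04 and 0.03 in the 6 drug comparisons. Under lithium relative to fluoxetine 2 rose and 2 fell in HT mice and 4 rose and 2 fell in WT mice, with Slitrk2 and Slitrk3 lower in both genotypes. Of all genes 6.25% passed there in HT and 9.55% in WT mice.

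Some members share their place in the genome with other genes. Flrt3 (ENSMUSG00000051379, GRCm38 chr2:140650914-140671469, minus strand) lies inside Macrod2 on the other strand, and Flrt1 (chr19:7092001-7105729, minus strand) inside Macrod1. Macrod2, at a mean of 1636 normalized reads, differed by 0.05 ± 0.04 in HT and 0.02 ± 0.04 in WT mice between fluoxetine and vehicle and did not pass (limma adjusted p = 0.58 and 0.914). In lithium minus fluoxetine Macrod2 differed by -0.08 ± 0.04 in HT mice (limma adjusted p = 0.235). In WT mice it passed, at -0.12 ± 0.04 (0.0307), and Flrt3 was lower there too. The part of this overlap in the Flrt3 values was not tested. Flrt2 (ENSMUSG00000047414, chr12:95692226-95785215, plus strand) overlaps no gene of the table. Libraries were strand-specific per the labels' protocols, and the strand setting of the quantification is not given in these sources.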

How the data were processed

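RNA from the prefrontal cortex of 58 mice was sequenced, and the authors deposited 1 table of 18088 genes whose unit is a signal: reads over the size factor of their library. The build was GRCm38 and the tools DESeq2 1.19.11, Salmon 0.11.2 and R 3.6.0, per the submitters' processing notes. Division by the step of each column (0.788 to 1.30) gave whole reads for 100% of values within 0.01, although 11 steps lie within 0.01 of 1. Such scaling hides a general shift in RNA content, and Salmon shares out reads between similar genes.

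Groups came from the labels. The test was limma 3.58.1 (R 4.3.3) with trend on log2(value + 1), in 1 fit of 12 groups of genotype, drug and sex that weighed the sexes equally, two-sided, with Benjamini-Hochberg adjustment over 17925 genes. In the report a log2 difference carries its SE after ±. Alternatives were edgeR 4.0.16 and DESeq2 1.42.0 on the recovered reads, other filters, pseudocounts of 0.1 and 5, quantile normalization, subsets and each library left out. Tests were checked on simulated data. No library repeated another, the smallest ratio of chi-square to degrees of freedom over 1653 pairs being 3.15.

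GENCODE vM21 gave symbols and positions for 18077 genes, and RefSeq the promoters. Named were all 10 members, genes of the lists that passed, and genes from among the 3 most like each member at each end, of which 1 is not reported here. Members and lists were chosen with earlier results of these data known. Lists covered partners, adhesion genes with leucine-rich repeats, activity genes and markers of 12 cell types, regions or layers. Likeness is Pearson's r after removal of group means (Python 3.11.15, pandas 2.3.3, scipy 1.17.1).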

Additional observations from a re-analysis of the deposited data

Results flagged for a closer look

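In 120 sets of libraries (10 genes in 12 groups), 10 held a library set apart from the others of its group by Dixon's criterion at 95%, where chance gives about 1 in 20 sets, or 6.0 here. Flrt3 had 1: HT vehicle male 1 at 620 normalized reads, with the other males of that group at 664 to 674. Flrt2 had 1: WT lithium female 2 at 2218, with the others at 2399 to 2452. Flrt1 had 1: HT fluoxetine female 4 at 722, with the others at 840 to 863.

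HT fluoxetine female 4 was also low in Tenm1, at 1846 against 2304 to 2349 in the other females of its group, and it held the lowest Tenm3 value of all. HT vehicle female 2 was high in Tenm1, at 2233 against 1966 to 2029, and in Tenm2, at 1937 against 1548 to 1600. In Tenm2, HT fluoxetine male 3 was low at 1437, with the others at 1826 to 1929. In Tenm3, WT fluoxetine male 5 was high at 3787, with the others at 2527 to 2886. Tenm4 had HT vehicle female 1 low at 4051, with the others at 4300 to 4368, and WT vehicle female 2 high at 5130, with the others at 4205 to 4399.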

How the results depend on the processing

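Counts of members past the threshold were the same in 158 of 168 recomputations that left no library out. Fitted in 1 sex, fluoxetine minus vehicle gave 0 members in HT males and, in WT mice, 0 in females and 0 in males. Lithium minus fluoxetine in HT mice gave 1 (Flrt3) with only the groups compared, 1 (Flrt3) with a term for Gm10221 reads, 0 in females and 0 in males. In WT mice it gave 1 (Flrt3) in females. In females with Gm10221 reads, an alternative chosen after seeing the data, it gave 0 in HT and 0 in WT mice. Subsets hold fewer mice. Over all genes edgeR on the recovered reads called 2889 in HT and 1355 in WT mice for lithium minus vehicle, 654 and 247 for fluoxetine minus vehicle, and 1096 and 1686 for lithium minus fluoxetine. Without 1 library at a time the count ran from 1 to 2 for fluoxetine minus vehicle in HT, from 1 to 2 for lithium minus fluoxetine in HT, and was 1 in WT for fluoxetine minus vehicle and 2 in WT for lithium minus fluoxetine each time. The Flrt3 difference between lithium and vehicle in WT mice changed sign around 0: 0.004 with edgeR, 0.0033 with DESeq2, 0.0131 in males, and -0.0232 to 0.0153 without 1 library. The cause was not tested. With no library left out, single members' differences were the same in 85 cases and kept their direction but lost the call in 14. No member had fewer than 449 reads in a library.

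Replicate numbers did not pair the mice: over 309 pairs of libraries with the same number the mean correlation of deviations was 0.0032, and 12 of 58 libraries were closest to their own number. With the number as a block, 1 member passed in fluoxetine minus vehicle in HT and 1 in WT mice, 2 and 2 in lithium minus fluoxetine, and 0 in the other comparisons. The Flrt3 difference was then 0.4144 in HT and 0.3651 in WT for fluoxetine minus vehicle, 0.1199 and -0.004 for lithium minus vehicle, and -0.2944 and -0.3692 for lithium minus fluoxetine, and that of Flrt2 was -0.2903 and -0.3469.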
